A study of Mus musculus with 16 samples.

Results

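The neutrophil granule and maturation genes described here are *Elane*, *Mpo*, *Prtn3*, *Ngp*, *Camp*, *Ltf*, *S100a8*, *S100a9*, *Ly6g* and *Retnlg*. They were found by symbol in a count table of 54838 genes from mouse spleen. They comprise 3 primary granule genes, 3 secondary granule genes and 4 genes of mature neutrophils, and 10 of 10 passed the filter on low counts. RNA sequencing covered 16 samples from C57BL/6 spleens, with no treatment or engineered allele given for any of them. The 8 whole spleen samples and the 8 size-selected samples form pairs that share a number. Numbers 407, 408, 427 and 435 are male, and numbers 436, 445, 447 and 460 are female. For the size-selected samples, minced spleen was digested with Dispase II added partway, red blood cells were lysed, and the cells that a strainer held back were lysed for RNA. Their source is given as spleen glia, and the study set them against whole spleen to find genes enriched in glia. The labels give no age, no separate preparation for whole spleen and no statement that each number is a single mouse, so the p-values measure the spread between these samples.

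Neutrophils arise from committed myeloid progenitors in the bone marrow and, in mice, also in the red pulp of the spleen. Promyelocytes transcribe the contents of primary granules, myelocytes and metamyelocytes those of secondary granules, and both programmes are switched off before the cell matures. Mature neutrophils retain abundant transcripts of the calcium-binding proteins S100a8 and S100a9 and carry the surface antigen Ly6g. The set is therefore grouped by assigned stage, from precursor to mature cell. Whether it reads those stages in these samples was not tested.

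The stretches before the transcription starts of 1 gene from each stage are printed because C/EBP and PU.1 factors are known regulators of granule genes. They come from RefSeq on GRCm38.p6 and stop before the first start annotated by RefSeq or GENCODE M21. All are on the plus strand, 5′ to 3′, at chr10:79886062-79886246 for *Elane*, chr9:110419558-110419746 for *Ngp* and chr3:90668821-90668977 for *S100a8*. Capitals mark the single match to a searched motif in each, GAGGAA (PU.1 type) for *Elane*, TTGCNNAA (C/EBP type) for *Ngp* and GAGGAA on the minus strand for *S100a8*.
Elane: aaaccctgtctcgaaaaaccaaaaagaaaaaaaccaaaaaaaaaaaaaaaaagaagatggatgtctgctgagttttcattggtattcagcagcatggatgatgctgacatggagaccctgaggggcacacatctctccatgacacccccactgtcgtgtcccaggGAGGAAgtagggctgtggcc
Ngp: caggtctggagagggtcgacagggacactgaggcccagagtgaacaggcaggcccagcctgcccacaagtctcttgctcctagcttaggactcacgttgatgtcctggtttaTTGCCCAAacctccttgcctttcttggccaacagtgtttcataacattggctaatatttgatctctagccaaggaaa
S100a8: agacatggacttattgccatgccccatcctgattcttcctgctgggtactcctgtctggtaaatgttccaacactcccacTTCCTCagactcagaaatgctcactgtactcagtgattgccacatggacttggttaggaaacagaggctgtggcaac
Windows of 250 bases before to 50 after the RefSeq start were available for 10 of the 10 genes and were searched on both strands. GAGGAA occurred in 6 of the 10 genes and in 28.3% of all 32851 windows. TTGCNNAA occurred in 5 of 10, among them *Ngp*, *Ltf* and *S100a9*, and in 10.8% of all windows. TATAAA occurred in 3 of 10, all of them genes of the mature group (*S100a8*, *S100a9* and *Ly6g*), and in 13.6% of all windows. A match describes the letters only. None of the printed stretches holds matches that overlap each other.

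Total estimated counts ranged from 12153770 to 16282454 in the whole spleens and from 13119992 to 19944440 in the size-selected samples. Levels below are given as CPM, counts scaled to a common library size, after TMM adjustment. Of 6 glial genes, 5 passed the filter and all 5 were higher in the size-selected samples, where the list summed to 65.2 to 467 CPM against 0.622 to 2.86 CPM in whole spleen. By the edgeR test used below, 37.5% of all genes tested were higher. The size-selected samples also kept B cell RNA (5 genes, 824 to 3109 CPM summed, against 5072 to 6369 CPM). Whole spleen 427 stood apart in its stromal genes, whose 5-gene sum was 66.9 CPM against 8.16 to 24.3 CPM in the other whole spleens. In the size-selected columns the deposited counts of 3898 genes are multiplied by constants, and *Mpo* is the single gene of the 10 among them.

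The neutrophil genes were lower in the size-selected samples than in whole spleen. By edgeR's quasi-likelihood test without the pairing, 9 of 10 were called lower at an adjusted p under 0.05 and none higher, where 30.4% of the 14510 genes tested were called lower. The median log2 fold change of the 10 genes was -1.58, against 0.05 over all genes tested. *Mpo* was the exception at an adjusted p of 0.0663. With the number as a block 10 of 10 were called lower, where 31.3% of all genes were. In 8 of 8 pairs 7 of the 10 were lower, where 22.3% of all genes tested were. In bulk RNA, fewer cells of a type and less RNA per cell cannot be told apart. The pairs behind these counts are plotted gene by gene.

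**Figure D1:**
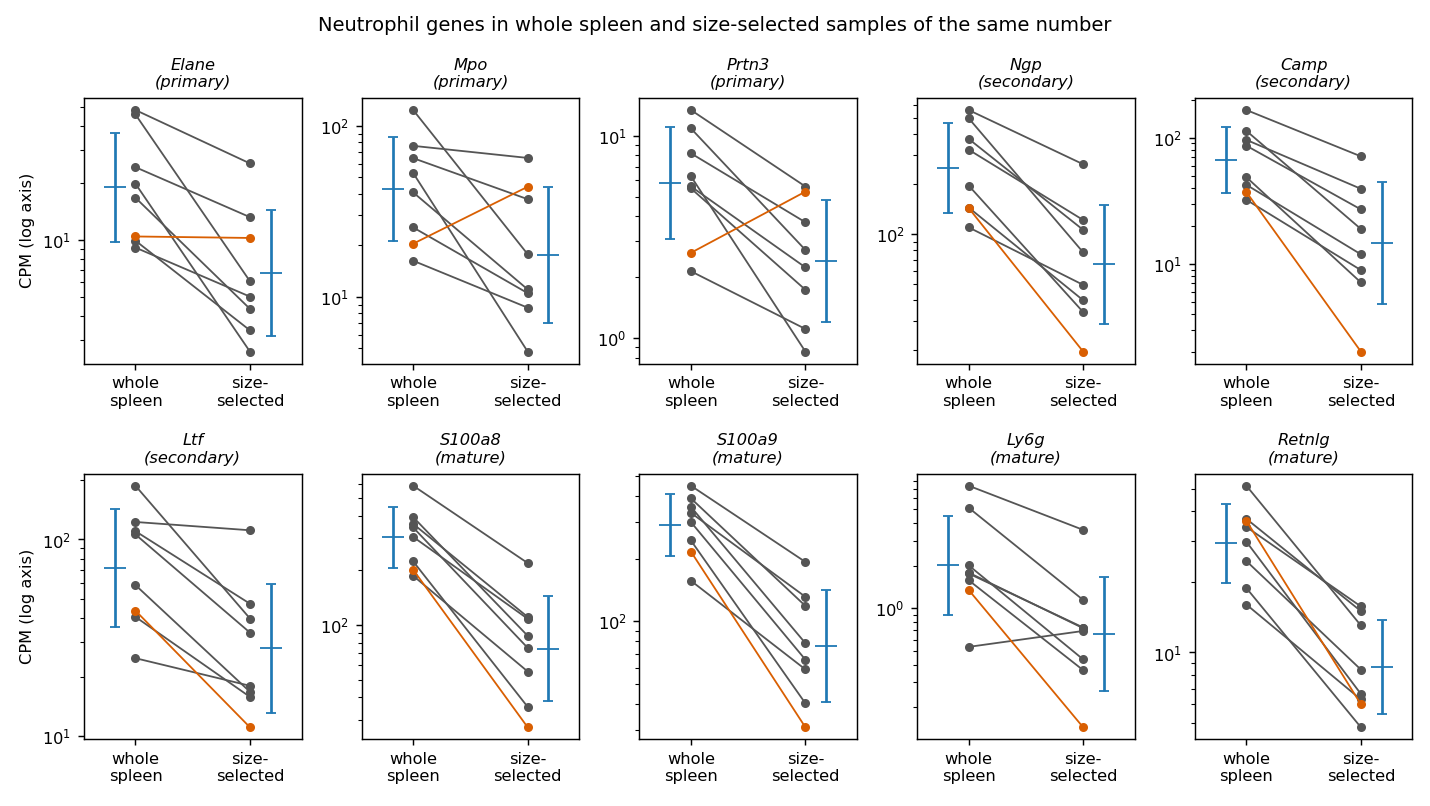
CPM of each gene (log axis) in whole spleen and size-selected samples, 8 each, with a line joining samples of the same number. Orange marks number 460 and grey the other numbers, and blue bars give the mean and SD of the 8 samples computed on log2 CPM. Most lines fall from left to right, and the orange line rises for Mpo and Prtn3.

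The primary granule genes encode the antimicrobial contents that promyelocytes pack first, and 2 of the 3 were called lower. *Elane* (ENSMUSG00000020125, chr10:79886247-79888215, GENCODE M21 on GRCm38) encodes neutrophil elastase. Its lowest, median and highest levels were 9.15, 18.3 and 48.5 CPM in whole spleen and 2.59, 5.57 and 25.4 CPM in the size-selected samples. The groups overlapped, with 3 size-selected samples at or above the lowest whole spleen, yet each size-selected sample lay below the whole spleen of its own number. In number 460 that gap was nearly nil, at -0.03 on the log2 scale, while in number 427 it was -2.89. The log2 fold change was -1.39 (SE 0.47, edgeR adjusted p 0.0139), a 2.62-fold lower level.

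*Prtn3* (ENSMUSG00000057729, chr10:79874476-79883174) encodes proteinase 3 and lies 3072 bases from *Elane*. It ranged from 2.14 to 13.4 CPM in whole spleen (median 5.95) and from 0.856 to 5.60 CPM in the size-selected samples (median 2.48). It was lower in 7 of 8 pairs, and in number 460 it was higher in the size-selected sample, at 5.29 against 2.63 CPM. Its log2 fold change was -1.22 (SE 0.41, edgeR adjusted p 0.0143). *Prtn3* shares 159 exonic bases with *Plppr3* on the opposite strand. *Plppr3* itself had 5 to 21.0 counts in whole spleen and 33 to 149 in the other fraction. Whether the counting used strand is not given in the sources used here, so reads over those bases cannot be told apart.

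*Mpo* (ENSMUSG00000009350, chr11:87793581-87804413) encodes myeloperoxidase, a peroxidase of primary granules. Its lowest, median and highest levels were 16.2, 46.8 and 124 CPM in whole spleen and 4.78, 14.4 and 64.8 CPM in the size-selected samples. Its pairs spread more than those of the other 9 genes, from -3.43 in number 447 to 1.10 in number 460 on the log2 scale, and 7 of 8 were lower. The log2 fold change was -1.08 (SE 0.50, edgeR adjusted p 0.0663) without the block and -1.26 (SE 0.42, adjusted p 0.0171) with it. Dividing out the constant that its size-selected values carry gave -0.82 (adjusted p 0.161) without the block, -1.02 (adjusted p 0.0475) with it, and a lower level in 6 of 8 pairs. Without number 435 or without number 460 the change was -1.36 or -1.37, with adjusted p 0.0267 and 0.0341. Limma-voom without the block gave -1.23 (adjusted p 0.0357). *Mpo* also shares 512 exonic bases with the antisense gene *Gm11505*, which had at most 3.21 counts in any sample.

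All 3 secondary granule genes, which all lie on chromosome 9, were called lower and were lower in 8 of 8 pairs. *Ngp* (ENSMUSG00000032484, chr9:110419747-110423012) encodes neutrophilic granule protein, a cathelicidin relative. It ranged from 110 to 561 CPM in whole spleen (median 260) and from 19.7 to 264 CPM in the size-selected samples (median 63.8). Only 2 size-selected samples, 435 and 445, reached the lowest whole spleen. The log2 fold change was -1.72 (SE 0.47, edgeR adjusted p 0.00352), a 3.30-fold lower level.

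*Camp* (ENSMUSG00000038357, chr9:109847379-109849617) encodes the cathelicidin antimicrobial peptide and lies 570129 bases from *Ngp*. It ranged from 32.2 to 166 CPM in whole spleen (median 67.5) and from 2.02 to 71.1 CPM in the size-selected samples (median 15.4). The lowest value belonged to number 460, whose pair difference of -4.11 was the lowest of any gene and pair. Its log2 fold change was -1.74 (SE 0.54, edgeR adjusted p 0.00782). *Ltf* (ENSMUSG00000032496, chr9:111019271-111042767) encodes lactoferrin, the iron-binding protein of secondary granules, and lies 596258 bases from *Ngp*. It ranged from 24.9 to 188 CPM in whole spleen (median 82.3) and from 11.1 to 111 CPM in the size-selected samples (median 25.8), with 4 size-selected samples at or above the lowest whole spleen. Its pair differences ran from -2.24 in number 427 to -0.14 in number 435, and the log2 fold change was -1.24 (SE 0.47, edgeR adjusted p 0.0248).

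All 4 genes of mature neutrophils were called lower. *S100a8* (ENSMUSG00000056054, chr3:90668978-90670035) and *S100a9* (ENSMUSG00000056071, chr3:90692632-90695721), 22596 bases apart, encode the subunits of calprotectin. *S100a8* ranged from 187 to 585 CPM in whole spleen (median 325) and from 27.4 to 220 CPM in the size-selected samples (median 81.1). *S100a9* ranged from 157 to 447 CPM in whole spleen (median 315) and from 31.0 to 193 CPM in the size-selected samples (median 71.9). For both genes, size-selected sample 435 alone reached the lowest whole spleen, and 8 of 8 pairs were lower. The log2 fold changes were -1.85 (SE 0.35, edgeR adjusted p 0.000144) for *S100a8* and -1.77 (SE 0.32, edgeR adjusted p 8.43e-05) for *S100a9*, or 3.62-fold and 3.40-fold lower levels.

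*Retnlg* (ENSMUSG00000022651, chr16:48872621-48874496) encodes resistin-like gamma, a secreted protein of neutrophils. It ranged from 16.02 to 51.5 CPM in whole spleen (median 32.0) and from 4.79 to 15.7 CPM in the size-selected samples (median 7.55). It was the single gene of the 10 whose groups did not overlap, where 11.6% of all genes tested were lower with no overlap. Its log2 fold change was -1.71 (SE 0.28, edgeR adjusted p 2.73e-05). *Ly6g* (ENSMUSG00000022582, chr15:75155240-75159126) encodes the surface antigen that marks mouse neutrophils. It was near the floor of detection, with 7 to 105 counts in whole spleen and 3 to 64 in the size-selected samples, and it belongs to a family of similar genes among which reads may be split. Its levels were 0.534 to 7.36 CPM in whole spleen (median 1.78) and 0.144 to 3.59 CPM in the size-selected samples (median 0.708). Number 408 ran against the other 7 pairs, at 0.31 on the log2 scale. The log2 fold change was -1.44 (SE 0.57, edgeR adjusted p 0.0325).

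Several of these calls were lost when single numbers were left out and the pairing was ignored. Without number 427, whose whole spleen stood apart in stromal genes, 6 of the 10 were called, and *Elane* (-1.11, adjusted p 0.0555), *Ltf* (-0.995, adjusted p 0.0787) and *Ly6g* (-1.28, adjusted p 0.0796) were lost beside *Mpo* (-0.71, adjusted p 0.233). *Ly6g* also lost its call without number 407, 436, 445 or 447, with adjusted p from 0.0546 to 0.0647 and log2 fold changes from -1.46 to -1.38, close to the -1.44 over all numbers, and *Ltf* without number 445, with an adjusted p of 0.0703 and a log2 fold change of -1.15 against -1.24. With library totals in place of TMM scaling, *Ly6g* had a log2 fold change of -1.30 with an adjusted p of 0.0548, and the median of all genes moved to 0.18. With the block kept, 10 of 10 genes were called whichever number was left out.

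Per kilobase of exon, the mature genes *S100a9* and *S100a8* had the highest mean levels in whole spleen, at 584 ± 183 and 469 ± 188 CPM per kilobase (SD, n = 8). *Ngp* followed at 241 ± 142 and *Camp* at 102 ± 61.5 CPM per kilobase. *Retnlg* stood at 52.4 ± 19.3, *Ltf* at 25.2 ± 15.9, *Elane* at 23.5 ± 16.05 and *Mpo* at 15.3 ± 10.5 CPM per kilobase. *Prtn3* (3.94 ± 2.23) and *Ly6g* (2.86 ± 2.46) were lowest. The ranges of mean ± SD overlapped for each pair of neighbours in this order. In the size-selected samples the order of the means on the deposited counts was the same, from 171 ± 104 CPM per kilobase for *S100a9* to 1.04 ± 1.16 for *Ly6g*. *Elane* (8.93 ± 7.74) and *Mpo* (7.25 ± 6.27) were close there. *Mpo* alone carries the constant, so the order of these 2 holds for the deposited counts only.

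**Figure D2:**
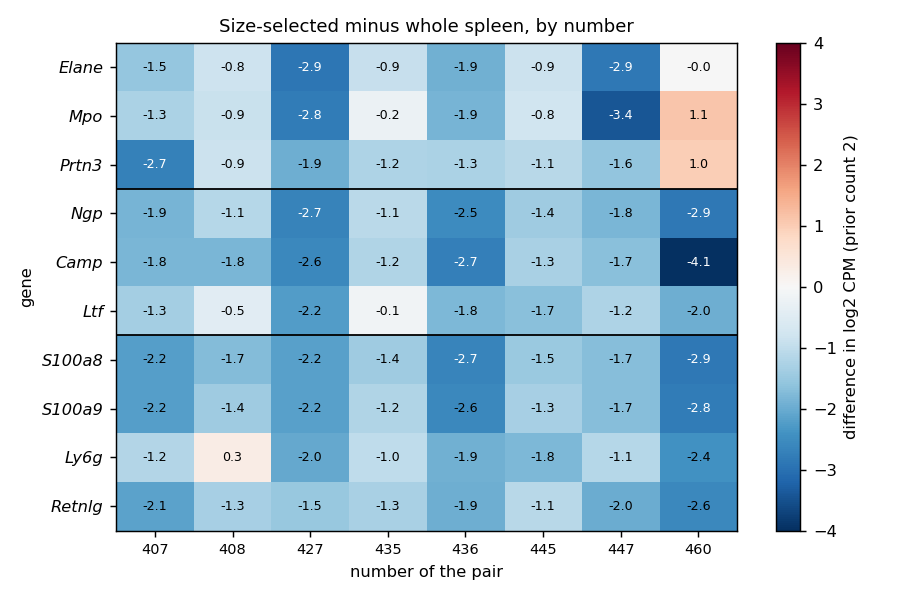
Difference in log2 CPM, size-selected minus whole spleen, for each of the 10 genes (rows, ordered by stage, lines between stages) in each of the 8 numbers (columns). Blue is lower in the size-selected sample. Number 460 combines positive values for Mpo (1.10) and Prtn3 (0.97) with the lowest value in the plot, Camp (-4.11).

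Stage by stage, the median log2 fold change was -1.22 for the primary, -1.72 for the secondary and -1.74 for the mature genes, or -1.27, -1.92 and -1.84 with the block. Whether stages changed by different amounts was tested on ratios of 2 genes within a sample, taking the gene with the highest mean log2 CPM, not adjusted for gene length, in each stage (*Mpo*, *Ngp* and *S100a8*). The log2 ratio of *S100a8* to *Mpo* was 2.07 ± 1.46 in the size-selected samples and 2.83 ± 0.70 in whole spleen (SD, n = 8), a difference of -0.76 that was negative in 6 of 8 pairs. The exact two-sided permutation test gave p = 0.216, or 0.481 adjusted over the 3 ratios. The ratio of *Ngp* to *Mpo* was 1.90 ± 1.53 against 2.55 ± 0.32 (SD, n = 8), a difference of -0.65 (exact permutation p = 0.321, adjusted 0.481). The ratio of *S100a8* to *Ngp* was 0.17 ± 0.37 against 0.28 ± 0.52 (SD, n = 8), a difference of -0.11 with an exact permutation p = 0.645. No ratio passed the test, whose smallest possible p is 0.000155 over 12870 splits, and none passed an exact sign-flip test over the 8 pairs (adjusted p 0.398 each). On restored counts, which change *Mpo* alone of these 3 genes, the differences were -1.05 for *S100a8* to *Mpo* and -0.95 for *Ngp* to *Mpo*, with an exact permutation adjusted p of 0.14 each. A difference between the stages was therefore not detected over all 8 numbers.

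Numbers 460 and 447 pulled the ratios to *Mpo* in opposite directions. The difference in the *S100a8* to *Mpo* ratio was -1.11 without number 447 (exact permutation test, adjusted p 0.0621) and -0.30 without number 460 (adjusted p 0.74). In number 460 the log2 ratio of *Ngp* to *Mpo* was -1.16 in the size-selected sample and 2.81 in whole spleen. In number 447 it was 4.44 against 2.83. Size-selected sample 460 was the single sample of the 16 with a negative value. These ratios are not adjusted for gene length, so only differences between samples are read from them. Without number 447 the difference in the *Ngp* to *Mpo* ratio was -0.97 (exact permutation test, adjusted p 0.028), and without number 460 it was -0.18 with an adjusted p of 0.74. With *Elane* or *Prtn3* standing for the primary stage, the differences in the *Ngp* ratio were -0.44 (adjusted p 0.601) and -0.70 (adjusted p 0.246), by the same exact test.

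The levels of these genes varied more between whole spleens than those of most genes. The SD of log2 CPM over the 8 whole spleens had a median of 0.894 for the 10 genes, against 0.316 over all 14510 genes tested and 0.267 over the 11312 genes whose mean reached that of the lowest of the 10. *Mpo* and *Ltf* differed 7.60-fold and 7.55-fold between the highest and the lowest whole spleen. Without whole spleen 427 *Mpo* differed 4.70-fold and *Ltf* 4.94-fold, and without whole spleen 408 *Ltf* differed 4.65-fold. *Prtn3* differed 6.27-fold, and *Elane*, *Camp* and *Ngp* differed 5.30-fold, 5.14-fold and 5.09-fold. *Retnlg*, *S100a8* and *S100a9* spread less, at 3.22-fold, 3.13-fold and 2.86-fold. *Ly6g* differed 13.8-fold, and 5.45-fold without whole spleen 408, where it had 7 counts. Among genes whose mean lay within 1 log2 unit of its own, the SD of each gene was between the 92.9th percentile (*Ly6g*) and the 99.9th (*Mpo*). In the size-selected samples the median SD was 1.08 for the 10 genes and 0.339 for all genes tested.

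**Figure D3:**
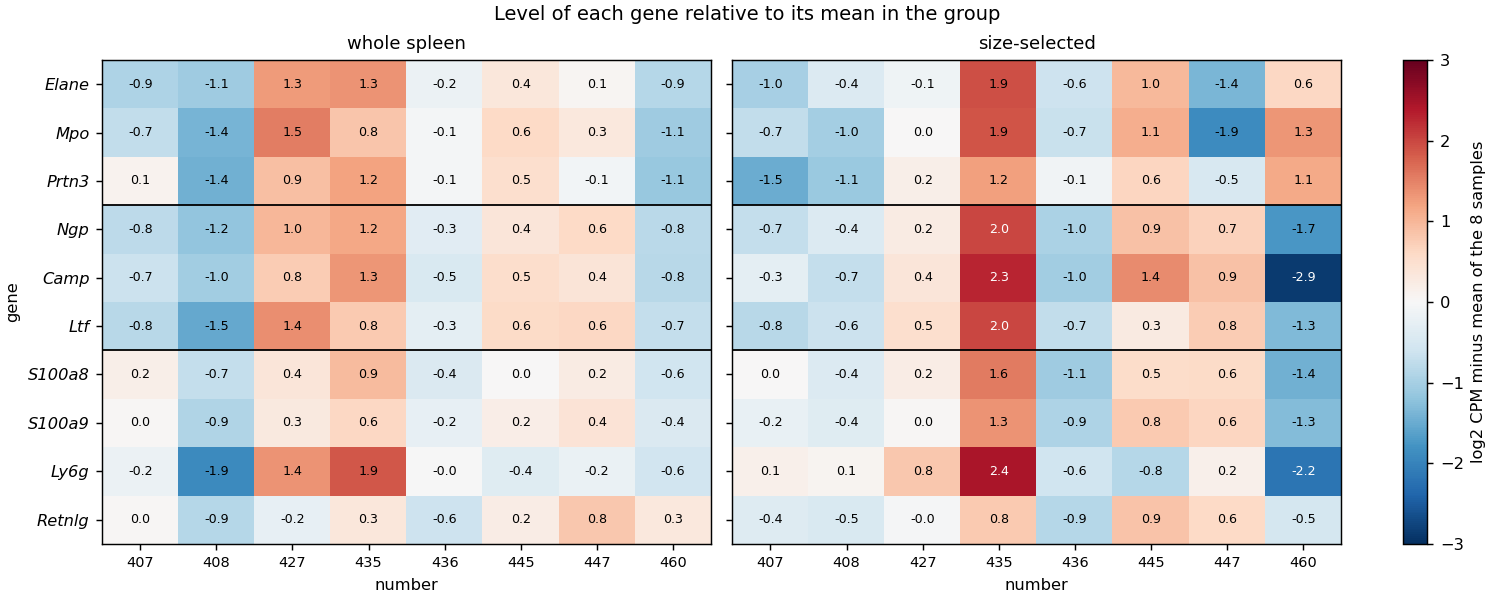
Log2 CPM of each gene minus its mean over the 8 samples of the group, for whole spleens (left) and size-selected samples (right), with samples in columns and genes in rows by stage. Whole spleen 408 is the lowest for 10 of 10 genes, and sample 435 is the highest for 7 whole spleen genes and 9 size-selected genes.

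The same whole spleens were high or low for most of the set. Whole spleen 408 was the lowest for 10 of 10 genes. Whole spleen 435 was the highest for 7 and among the top 2 for all 10, and whole spleen 427 was the highest for *Mpo* and *Ltf* and among the top 2 for 8. *Retnlg* differed in this, with its highest level in whole spleen 447. Whole spleens also differed in erythroid RNA. The 8 erythroid genes summed to 24199 CPM in whole spleen 435 and 14083 CPM in 427, the highest of the group. They summed to 5699 CPM in whole spleen 408 and were lowest in 436, at 474 CPM. The part of erythroid RNA in the spread of the neutrophil genes was not tested.

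Over the 8 whole spleens the granule genes varied together. Of the 45 pairs of genes, 36 had a Pearson r of log2 CPM with an exact permutation p under 0.05 after adjustment over the 45, and 30 by Spearman's rho. All of these r values were positive. The share of such pairs among other genes was not measured, so the count is not read as particular to this set. Outside the set, *Gbp8* had an r of 0.97 with *Mpo*, against 0.89 for *Prtn3* with *Mpo*. The median r was 0.89 within the primary genes, 0.97 within the secondary genes and 0.75 within the mature genes. Between stages it was 0.93 for primary with secondary, 0.84 for secondary with mature and 0.81 for primary with mature genes. *Ngp* and *Camp* had an r of 0.98 (exact permutation p = 0.000124, adjusted 0.00186; rho 0.98, exact permutation p = 0.000397, adjusted 0.00467). *Mpo* and *Ltf*, from different stages, also had an r of 0.98 (exact permutation p = 0.000124, adjusted 0.00186; rho 0.95, exact permutation p = 0.00114, adjusted 0.00467). Without the 2 whole spleens farthest from the median of the first gene, these values were 0.98 and 0.95. Over all 45 pairs the median r fell from 0.86 to 0.72 when the 2 farthest whole spleens of each pair were left out. The medians that included mature genes fell most, to 0.64 for primary with mature, 0.65 for secondary with mature and 0.58 within the mature genes. Those within the secondary and between primary and secondary genes were 0.98 and 0.94. *Retnlg* was the exception, with r from 0.27 (*Elane*) to 0.69 (*S100a9*) and no pair past the test. Without the 2 farthest whole spleens its r fell to -0.31 with *Prtn3* and -0.45 with *Ly6g*, and it also fell with *Mpo*, *Ngp*, *Camp* and *S100a8*. It rose to 0.44 with *Elane* and 0.76 with *S100a9*, and was 0.48 with *Ltf*.

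**Figure D4:**
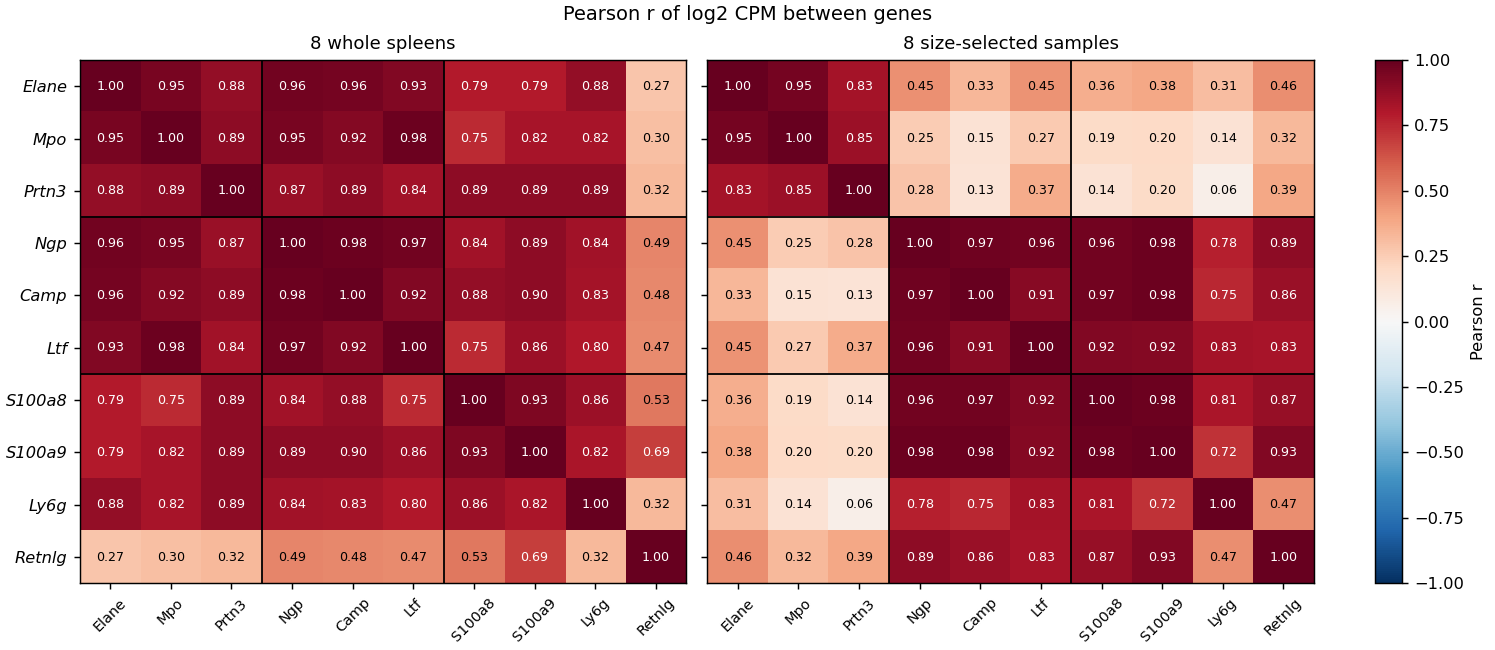
Pearson r of log2 CPM between each pair of genes over the 8 whole spleens (left) and over the 8 size-selected samples (right), with lines between the stages. In the right panel the block of primary with secondary genes is pale, with a median r of 0.28 against 0.93 on the left.

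In the size-selected samples the stages did not all vary together. Of the 45 pairs, 21 passed the same adjusted exact test, and the share among pairs of other genes was again not measured. *Retnlg* passed here with *Ngp*, *Camp*, *Ltf*, *S100a8* and *S100a9* (r from 0.83 to 0.93), but not with *Ly6g* or the primary genes. Within stages and between secondary and mature genes the median r was 0.85 for primary, 0.96 for secondary, 0.84 for mature and 0.91 for secondary with mature genes. Without the 2 farthest samples these medians were 0.75, 0.90, 0.57 and 0.84, with r within the mature genes reaching down to -0.12, and the r of *Ly6g* with *Ngp* went from 0.78 to 0.0023. Between primary and secondary genes the median r was 0.28 and 0 of 9 pairs passed, and between primary and mature genes it was 0.25 and 0 of 12 passed. Number 460 was high in primary and low in secondary genes, and without it the medians were 0.73 and 0.60. Without the 2 farthest samples, which differ between pairs, the medians between primary and secondary and between primary and mature genes were -0.27 and -0.31. The difference between the fractions was not tested.

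Genes outside the set were ranked by the likeness of their log2 CPM to 1 gene of each stage over the 8 whole spleens, among 8837 genes. For *Mpo* the 5 most alike were *Gbp8* (r = 0.97), *Recql* and *Nusap1* (0.95 each), *Ccnb2* (0.95) and *Afg3l1* (0.94). For *Ngp* they were *Lcn2* (0.98), *Aqp1* and *Slc25a37* (0.97 and 0.96), *Tmem106a* and *Gbp8* (0.95 each). For *S100a8* they were *Slc25a39* and *Atpif1* (0.95 each), *Prdx2* (0.93), *Blvrb* and *Bcat2* (0.92 each). These r values share the same 8 libraries and are the highest of many, so they are a description without a test. *Lcn2*, the neutrophil lipocalin of secondary granules, ran from 27.5 to 121 CPM over the whole spleens and, like *Ngp*, was lower in the size-selected samples (log2 fold change -1.67, SE 0.40, edgeR adjusted p 0.00122). The other genes most alike to *Ngp* did not share 1 direction between fractions. *Slc25a37* was lower (-0.82, edgeR adjusted p 0.0106), whereas *Aqp1* (1.96, adjusted p 0.00113), *Tmem106a* (1.43, adjusted p 3.26e-06) and *Gbp8* (1.28, adjusted p 9.68e-06) were higher.

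Other genes of the neutrophil pathway were read from a list of 44, of which 38 passed the filter. By edgeR without the block, 22 of the 38 were lower and 7 higher in the size-selected samples, with a median log2 fold change of -0.79. Over all genes tested 30.4% were lower and 37.5% higher by the same test. With the block 24 of the 38 were lower, where 31.3% of all genes were, and 7 higher. Among the early genes, 3 of 7 were lower and 3 higher. *Gfi1*, a transcription factor of granulocyte commitment, had 13.5 ± 2.09 CPM in whole spleen and 9.04 ± 2.66 in the size-selected samples (SD, n = 8 each; log2 fold change -0.58, edgeR adjusted p 0.0106). *Ctsg*, the cathepsin G gene of primary granules, had a log2 fold change of -0.99 without the block (edgeR adjusted p 0.0882) and -1.09 with it (adjusted p 0.0186). *Cebpe*, the factor that drives secondary granule genes, did not pass the filter, with at most 16 counts in a sample. The 3 early genes that rose were *Cebpa* (2.41), *Kit* (0.51) and *Cd34* (4.71), which other progenitor, mast, adipose or vascular cells also express.

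**Figure D5:**
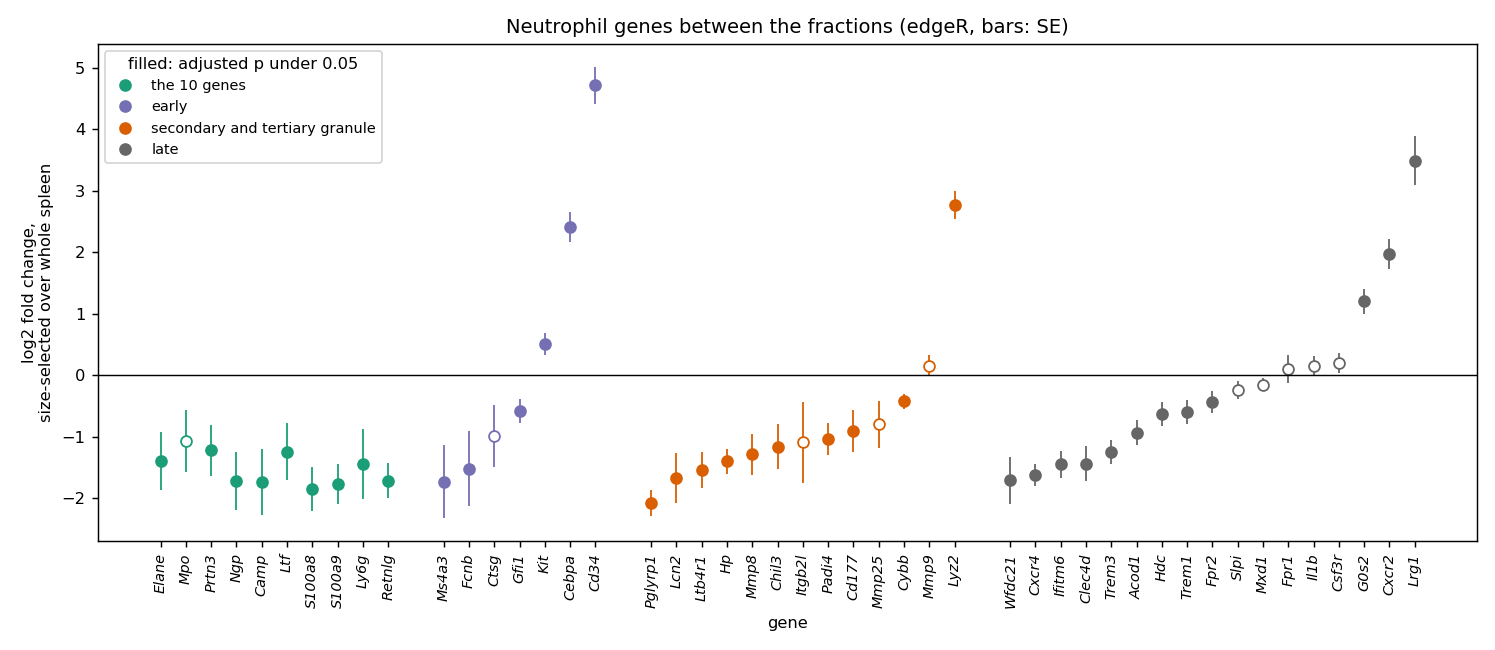
Log2 fold change, size-selected over whole spleen, with its SE from edgeR for the 10 genes (green) and for other neutrophil pathway genes that passed the filter, grouped as early, secondary and tertiary granule, and late. Filled points have an adjusted p under 0.05. The 10 genes lie between -1.85 and -1.08, whereas the other groups reach from -2.08 to 4.71.

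Among the secondary and tertiary granule genes, 9 of 13 were lower and 1 higher. *Lcn2* (-1.67), *Mmp8*, a collagenase (-1.29, edgeR adjusted p 0.00224), and *Chil3*, a chitinase-like protein (-1.16, edgeR adjusted p 0.00859), fell with the 10 genes. *Mmp9*, the gelatinase of tertiary granules, did not pass the test on the deposited counts, at 16.4 ± 3.07 CPM in whole spleen and 18.2 ± 5.55 in the size-selected samples (SD, n = 8; log2 fold change 0.15, edgeR adjusted p 0.444). On restored counts it was 0.39 (adjusted p 0.0431). *Cybb*, the oxidase subunit gene that macrophages also express, was among the 9 on the deposited counts (-0.43, edgeR adjusted p 0.00621) and lost its call on restored counts (-0.19, adjusted p 0.184). *Lyz2*, a lysozyme gene that macrophages also express, was the one that rose (2.77). Among the late genes, 10 of 18 were lower and 3 higher. *Csf3r*, the G-CSF receptor gene, had 19.7 ± 5.10 CPM in whole spleen and 22.5 ± 2.91 in the size-selected samples (SD, n = 8; log2 fold change 0.19, edgeR adjusted p 0.291). *Cxcr2*, a chemokine receptor of mature neutrophils, rose from 11.7 ± 3.43 to 46.0 ± 16.3 CPM (SD, n = 8; log2 fold change 1.97, edgeR adjusted p 1.15e-06). Of other receptor genes, *Fpr1*, a formyl peptide receptor, did not pass the test (log2 fold change 0.096, edgeR adjusted p 0.726), and some were lower. *Cxcr4*, the chemokine receptor that holds immature neutrophils in the marrow and that B cells also express, fell from 209 ± 20.9 to 67.8 ± 23.5 CPM (SD, n = 8; log2 fold change -1.63, edgeR adjusted p 2.39e-07). *Trem1*, an activating receptor (-0.60, edgeR adjusted p 0.0142), and *Fpr2*, a relative of *Fpr1* (-0.44, edgeR adjusted p 0.0357), fell as well. *Ltb4r1*, the leukotriene B4 receptor gene of the granule list, also fell (-1.53, edgeR adjusted p 0.000139), as did *Wfdc21* (-1.71, edgeR adjusted p 0.000638) and the lectin gene *Clec4d* (-1.44, edgeR adjusted p 0.000189) among the late genes. Beside *Cxcr2*, the late genes that rose were *G0s2*, from 11.4 ± 1.84 to 26.3 ± 10.7 CPM (SD, n = 8), and *Lrg1*, from 36.8 ± 25.4 to 413 ± 243 CPM (SD, n = 8).

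Markers of other cells were read between the fractions by the same edgeR test without the block. Over all genes tested 30.4% were lower and 37.5% higher, so a small count in a short list says little by itself. Monocytes also transcribe *S100a8* and *S100a9*, and of 5 monocyte genes 3 were lower, among them *Ly6c2* (log2 fold change -1.71) and *Ccr2* (-0.80), and 2 were higher, *Csf1r* (1.92) and *F13a1* (0.58, or 0.53 with an edgeR adjusted p of 0.0645 on restored counts). Their sum was 567.5 to 1020 CPM in whole spleen and 1055 to 2231 CPM in the size-selected samples. Of the 6 eosinophil, basophil and mast cell genes, 4 were tested and 4 were lower (on restored counts *Cpa3* lost its call, at -0.99 with an edgeR adjusted p of 0.0545), with a sum of 28.4 to 54.4 CPM in whole spleen and 4.89 to 22.3 CPM in the size-selected samples. All 5 B cell genes and all 5 T cell genes were lower, the latter with a sum of 571 to 855 CPM in whole spleen and 58.6 to 379 CPM in the size-selected samples. Of 8 erythroid genes 5 were lower (474 to 24199 CPM against 214 to 7124 CPM), of which *Hbb-bs* (-1.64, edgeR adjusted p 0.0554) and *Hbb-bt* (-1.69, adjusted p 0.0579) lost their calls on restored counts, while all 8 were lower with the block. Of 5 red pulp macrophage genes 3 were higher and none lower (1051 to 2157 CPM against 2214 to 4828 CPM). Of 5 megakaryocyte genes 4 were higher (127 to 250.2 CPM against 158 to 708 CPM), and all 5 stromal genes were higher (8.16 to 66.9 CPM against 1307 to 4170 CPM). Of 6 genes induced by tissue dissociation all were higher, with sums of 2386 to 5366 CPM against 275 to 569 CPM. None of the genes in these lists was at 0 throughout a group. The part of these cell types and of dissociation in the fall of the neutrophil genes was not tested.

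No neutrophil gene was called between the sexes. In whole spleen 0 of the 10 were called between females and males by edgeR, where 0.194% of 13383 genes were called. An unadjusted edgeR p under 0.05 was reached there by 0 of the 10 and by 2149 of the 13383 genes. Log2 fold changes of female over male ran from -1.16 for *Ly6g* to 0.39 for *Retnlg*, and 9 of 10 were negative. *Ly6g* was 1.68 ± 0.281 CPM in the whole spleens of females and 3.70 ± 3.12 in those of males (SD, n = 4), with an edgeR adjusted p of 0.36. In the size-selected samples 0 of 10 were called, where 0.0397% of 15127 genes were. The single one of the 10 with an unadjusted p under 0.05 was *Ly6g* (log2 fold change -1.93, edgeR p 0.0184, adjusted 0.9992). Of the 15127 genes, 632 had an unadjusted edgeR p under 0.05. Without number 435, a male, the *Ly6g* difference was -1.03 in the size-selected samples and -0.57 in whole spleen. The interaction of sex and fraction called 0 of the 10 and 0% of 15760 genes by edgeR, with 744 genes and 0 of the 10 at an unadjusted p under 0.05. DESeq2 called 3 genes there, none of them among the 10. Groups of 4 left wide errors on these differences, with SE from 0.27 to 0.60 in whole spleen, 0.43 to 0.87 in the size-selected samples and 0.56 to 1.08 for the interaction.

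The authors' deposited table of this comparison lists 2201 genes and none of the 10. Log2 fold changes in the authors' deposited table start at 3.50 and adjusted p-values end at 0.00995, and 0 of its genes are lower in the size-selected group.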

How the data were processed

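Whole spleen and size-selected samples of 8 numbers were sequenced. The deposited values are estimated counts for each gene, and the authors' list gives log2 fold changes and p-values per the file headers. Trim Galore, STAR, RSEM, DESeq and mm10 are named in the submitters' processing notes, with no role or order. Estimated counts were rounded and tested with edgeR 4.0.16 in R 4.3.3 (filterByExpr with a minimum count of 10, TMM, quasi-likelihood F test, Benjamini-Hochberg over all genes tested). DESeq2 1.42.0, limma-voom (limma 3.58.1), other scalings and filters, restored counts (constants divided out) and each number left out were alternatives. Leaving out numbers with the block kept, *Elane* or *Prtn3* in place of *Mpo*, and the correlations over size-selected samples were added after the data were seen. Log2 CPM used a prior count of 2. Same-numbered samples deviated together (r from 0.12 to 0.38, mean 0.21, against -0.03 for different numbers), so the numbers pair the samples. Exact permutation tests were two-sided. On simulated counts with 200 genes changed by 2 log2 units, the fraction test recovered 94.9% of the changed genes among 14343 tested. The tests of sex recovered 95.5% in whole spleen (13115 tested) and 85.8% in the size-selected samples (14842 tested), and that of sex by fraction 72.5% (15422 tested). False calls were 10 of 195 for fraction, 7 of 197 and 9 of 178 for sex, and 12 of 157 for sex by fraction. The changed genes were drawn at random, whereas the 10 genes vary more than most, so these shares need not hold for them. The genes named were the 10 genes, pathway genes of a written list (1 is not reported here) and the 5 most alike to 1 gene of each stage. *Cebpa*, *Kit*, *Cd34*, *Lyz2*, *Cybb*, *Fpr1*, *Cxcr4*, *Trem1*, *Fpr2*, *Ltb4r1*, *Wfdc21*, *Clec4d*, *G0s2*, *Lrg1* and the single monocyte, mast cell and erythroid genes were named after their values were seen. The genes and lists were chosen with earlier results of these data known.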

Additional observations from a re-analysis of the deposited data

Results flagged for a closer look

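Number 460 stood apart in the balance of secondary to primary granule RNA. Its log2 ratio of *Ngp* to *Mpo* changed by -3.97 from whole spleen to the size-selected sample, whereas the other 7 pairs ran from -0.85 to 1.61. The gap to the nearest pair was 0.559 of the whole range, past Dixon's 95% limit for 8 values. Of 39 groups of values screened this was the single one past the limit. Chance alone flags about 1 in 20, or 1.95 of the 39, so 1 flag is no more than chance gives. In that number the size-selected sample had 44.0 CPM of *Mpo* against 20.4 CPM in whole spleen, and 19.7 CPM of *Ngp* against 144 CPM.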

How the results depend on the processing

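With the replicate block, *Mpo* joined the called genes (-1.26), and the block changed no other call among the 10. Limma-voom without the block also called it (-1.23, adjusted p 0.0357), so 10 of 10. With a minimum count of 50, *Ly6g* was not tested and 8 were called. With each number left out, the log2 ratio of *Ngp* to *Mpo* differed between fractions by -0.97 to -0.18, that of *S100a8* to *Mpo* by -1.11 to -0.30 and that of *S100a8* to *Ngp* by -0.20 to -0.037. The first passed the test only without number 447 (-0.97). Over all 8 pairs the sign-flip test gave an adjusted p of 0.398 for its difference of -0.65. On restored counts the differences were -0.95 for *Ngp* to *Mpo* and -1.05 for *S100a8* to *Mpo*. Sex calls in whole spleen moved from 26 (13 higher, 13 lower in females) to 273 (118 and 155) without a filter and to 518 (223 and 295) with DESeq2. Leaving out single numbers gave 7 (without 460) to 261 (without 427) calls, with 2 to 109 higher and 5 to 152 lower. In the size-selected samples DESeq2 called 22 (15 higher, 7 lower). For sex by fraction the block and DESeq2 called 3 each, all higher, and leaving out numbers gave 0 to 1. The cause of these shifts was not tested.

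Signs of several uncalled sex differences turned. With limma-voom, *Ltf* in whole spleen was 0.091 and *Retnlg* in the size-selected samples was -0.073. Leaving out numbers gave, in whole spleen, *Mpo* -0.76 to 0.17, *Ngp* -0.64 to 0.041, *Camp* -0.69 to 0.10, *Ltf* -0.57 to 0.33 and *S100a9* -0.32 to 0.13. In the size-selected samples it gave *Elane* -0.83 to 0.64, *Mpo* -0.59 to 0.98, *Prtn3* -0.058 to 1.07, *Ngp* -1.05 to 0.33, *Camp* -1.25 to 0.50, *Ltf* -1.23 to 0.15, *S100a9* -0.67 to 0.24 and *Retnlg* -0.23 to 0.46. *Ly6g* kept its sign, at -1.52 to -0.57 in whole spleen and -2.34 to -1.03 in the size-selected samples. For sex by fraction it gave *Elane* -0.25 to 0.94, *Mpo* -0.41 to 1.28, *Ngp* -0.70 to 0.29, *Camp* -0.60 to 0.40, *Ltf* -1.20 to 0.23, *S100a8* -0.40 to 0.13 and *S100a9* -0.50 to 0.12.

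Leaving out numbers gave highest over lowest ratios of 2.10 (without 435) to 3.13 for *S100a8*, 4.70 (without 427) to 7.60 for *Mpo*, 4.65 (without 408) to 7.55 for *Ltf* and 5.45 (without 408) to 13.8 for *Ly6g*. Without the 2 farthest whole spleens, r turned to -0.31 for *Prtn3* with *Retnlg* and to -0.45 for *Ly6g* with *Retnlg*. Of 1365 recomputed values, 1262 kept their direction and their side of the threshold, or stayed within the spread or the 1.5 times allowed for counts. Of the other 103, 33 turned in sign, 15 lost and 14 gained a call, and 41 moved further. Depth limits *Ly6g*, at 3 to 105 counts, and *Cebpe*.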
